A study of Mus musculus with 6 samples.

Results

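The chaperone genes of the mouse hippocampus described here are the heat shock proteins, the J-proteins, the chaperonin subunits and the BAG factors. They were chosen by gene symbol (Hspa, Hspb, Hsph1, Hsp90, Hspd1, Hspe1, Dnaja, Dnajb, Dnajc, Cct2 to Cct8, Tcp1 and Bag1 to Bag6, without pseudogenes), with no use of their measured values. The rule was met by 87 of 32201 genes in the deposited data, and 74 of the 87 had a mean of at least 1 FPKM (fragments scaled to gene length and library size) and were tested among 13153 genes. The libraries were rRNA-depleted total RNA from hippocampi of male C57BL/6N mice aged 8 weeks. Every mouse had gone through chronic unpredictable mild stress, in which varied mild stressors serve as a rodent model of depression. The baicalin group (3 libraries) received baicalin, a flavone glucuronide of Scutellaria root, at 20 mg/kg. The saline group (3 libraries) received saline. An unstressed control group named in the labels is not analysed here, so the values say nothing of the effect of stress.

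Molecular chaperones bind unfolded stretches of other proteins and keep them from aggregating. HSP70 proteins do so in cycles of ATP hydrolysis: J-proteins deliver the client and start hydrolysis. Nucleotide exchange factors, among them most BAG proteins and HSP110, release the client. HSP90 acts later, on receptors and kinases close to their folded state, and the chaperonins enclose a client in a barrel. In neurons the system also works at the synapse, where auxilin (Dnajc6) and HSC70 (Hspa8) strip the clathrin coat from vesicles and cysteine string protein (Dnajc5) guards the fusion machinery.

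None of the 74 tested chaperone genes passed an adjusted p of 0.05 (edgeR's quasi-likelihood test, Benjamini-Hochberg adjustment over all genes), against 0.0456% of all genes tested, which is 6 genes. At an unadjusted p of 0.05 the edgeR test gave 5 members, or 6.76% of the 74, against 11.8% of all genes tested: Bag1, Hspa2, Dnajc4 and Hspb11 with a positive log2 change (baicalin minus saline; 5.41% of members, 6.34% of all genes) and Dnaja4 with a negative one (1.35% of members, 5.46% of all genes). DESeq2 and limma each gave 7 members at an unadjusted p of 0.05 and called none after adjustment. In 11 members (14.9%) the groups did not overlap, that is, all 3 baicalin libraries lay on one side of all 3 saline libraries, against 19.4% of all genes tested. Of these, 7 members (9.46%, all genes 9.93%) were higher in the baicalin group and 4 (5.41%, all genes 9.52%) were lower. The members' shares were thus near or under the background. The direction of these counts depended on the scaling. With libraries scaled to equal summed TPM (counts per gene length) every member's log2 change was lower by 0.07 to 0.09, and that of all genes by a median of 0.08. No member was then higher at an unadjusted p of 0.05 in edgeR (all genes 2.52%) and 7 were lower (9.46%, all genes 11.9%): Dnaja4, Dnajb14, Dnajc3, Dnajc6, Dnajc13, Dnajc14 and Hspb1. The groups of 1 member, Hspb11, then lay higher without overlap (1.35%, all genes 4.14%) and those of 14 lower (18.9%, all genes 19.1%).

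The chaperone genes were abundant and in the median varied less than all genes tested, a comparison not matched for level. Their median level was 14.5 FPKM against 5.70 over all genes tested (levels here are FPKM scaled by TMM, the trimmed mean of M-values), with median exon lengths of 4044.5 and 4097.5 bp. The median size of the log2 change was 0.07 in the members and 0.10 in all genes tested, and the median SD within groups was 0.08 and 0.11 on the log2 scale. Of the 74 changes, 51 were smaller than 0.1 and 65 smaller than 0.2. The signed median was -0.02 in the members and -0.0006 in all genes tested, and 33 members (44.6%, all genes 49.8%) had a positive value. Under the scaling to equal TPM the medians were -0.10 in the members and -0.08 in all genes tested, and 16 members (21.6%, all genes 29.7%) had a positive value. The members held 0.969 to 1.03% of all counts in each library.

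**Figure D1:**
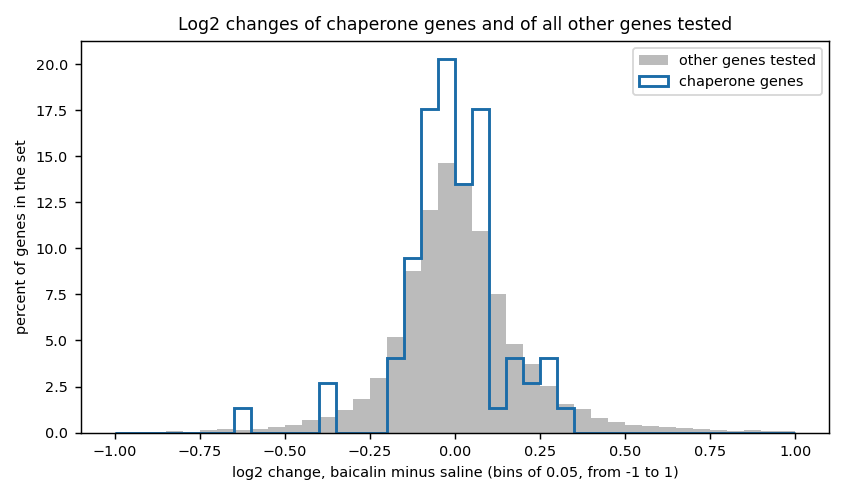
Share of genes (percent, vertical axis) in each bin of log2 change, baicalin minus saline (horizontal axis), for the 74 tested chaperone genes and for all other genes tested. The chaperone genes sit closer to 0, with quartiles of -0.07 and 0.07 against -0.09 and 0.10 in all genes.

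Library totals ranged from 61303274 to 67957752 counts, and the totals of the saline group (65989141 to 67957752) were all above those of the baicalin group. Mitochondrial genes took 7.71 to 8.69% of counts in the baicalin and 7.18 to 7.82% in the saline libraries. Summed markers of pyramidal and granule neurons were lower in the baicalin libraries (759 to 830 FPKM against 852 to 895). Camk2a alone had a mean of 491 FPKM. Of the 6 markers, 5 were lower without overlap (all genes 9.52%), and none passed the adjusted threshold in edgeR. Prox1 lay the other way, with overlapping groups (log2 change 0.08). Summed astrocyte markers were higher in the baicalin libraries (370.5 to 389 FPKM against 354 to 369.7), and Aldoc alone had a mean of 198. Of 6 markers 2, Aldoc and Gjb6, were higher at an unadjusted p of 0.05 in edgeR (all genes 6.34%). None passed the adjusted threshold. Gfap, Slc1a3, Aldh1l1 and Aqp4 had overlapping groups, with log2 changes of 0.02, 0.004, 0.03 and -0.05. The summed levels of the other 9 marker lists overlapped between the groups. In bulk tissue, fewer cells of a type and less RNA per cell cannot be told apart. The part of these differences in the values below was not tested. Hippocampal markers were present in every library.

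Sequences upstream of a few of these genes held exact matches to 2 elements through which cells are known to raise transcription, each in 3 of 71 members. The unfolded protein response of the endoplasmic reticulum acts through the endoplasmic reticulum stress element, searched as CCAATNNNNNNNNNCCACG on both strands of the 250 bases before each RefSeq start (build GRCm38.p6). It was found in 0.113% of 32851 promoters (37), and in 3 of the 71 members that had a promoter in the table (91 promoters): Hspa5, Hsp90b1 and Dnajc3, all of which act in that compartment. The 3 windows are printed 5′ to 3′ on the strand of the gene, since the values of these genes are set against each other below; capitals mark the element. Hsp90b1 has 2 matches, and the nearest match in Hspa5 begins 65 bases before the RefSeq start, which lies inside its deposited gene record.
Hspa5, chr2:34771840-34772089 on the + strand: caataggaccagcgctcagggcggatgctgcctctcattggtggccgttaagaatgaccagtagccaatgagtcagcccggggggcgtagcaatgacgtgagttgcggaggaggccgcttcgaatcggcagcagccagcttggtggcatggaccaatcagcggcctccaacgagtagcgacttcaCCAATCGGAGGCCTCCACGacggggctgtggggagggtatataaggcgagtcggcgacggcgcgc
Hsp90b1, chr10:86705445-86705694 on the - strand: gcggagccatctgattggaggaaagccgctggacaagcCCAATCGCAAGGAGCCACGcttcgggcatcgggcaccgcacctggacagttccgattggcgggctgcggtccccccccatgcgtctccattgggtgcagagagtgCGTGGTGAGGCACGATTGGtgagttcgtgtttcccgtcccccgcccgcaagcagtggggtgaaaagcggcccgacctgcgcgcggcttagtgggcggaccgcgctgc
Dnajc3, chr14:118937682-118937931 on the + strand: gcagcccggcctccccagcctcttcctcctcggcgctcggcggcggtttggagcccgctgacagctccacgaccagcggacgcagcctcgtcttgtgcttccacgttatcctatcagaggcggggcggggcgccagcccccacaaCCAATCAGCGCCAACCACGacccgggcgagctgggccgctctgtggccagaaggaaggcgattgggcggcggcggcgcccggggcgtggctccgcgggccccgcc

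The heat shock element, through which heat shock factors act, was searched as GAANNTTCNNGAA on both strands. It was found in 0.466% of the promoters (153), and in 3 members: Dnajb6, Hspd1 and Hspe1. Hspd1 and Hspe1 lie head to head on chromosome 1 and share 1 control region, in which 2 overlapping matches stand. The 215 bases between their RefSeq starts are printed on the strand of Hspe1, and the window of Dnajb6 on its own strand, with the matches in capitals. No match in the other windows says only that these exact letters were not found there.
Hspd1 and Hspe1, between their starts, chr1:55087933-55088147 on the + strand: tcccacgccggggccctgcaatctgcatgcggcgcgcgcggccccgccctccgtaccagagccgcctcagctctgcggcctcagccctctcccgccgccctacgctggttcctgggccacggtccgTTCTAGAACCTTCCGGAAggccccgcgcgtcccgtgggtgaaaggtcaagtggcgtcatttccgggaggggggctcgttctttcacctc
Dnajb6, chr5:29735648-29735897 on the + strand: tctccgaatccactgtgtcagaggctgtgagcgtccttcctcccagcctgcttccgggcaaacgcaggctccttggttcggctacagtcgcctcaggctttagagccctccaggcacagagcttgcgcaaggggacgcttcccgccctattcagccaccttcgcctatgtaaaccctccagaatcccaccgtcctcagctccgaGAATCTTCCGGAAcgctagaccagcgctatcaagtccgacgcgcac

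**Figure D2:**
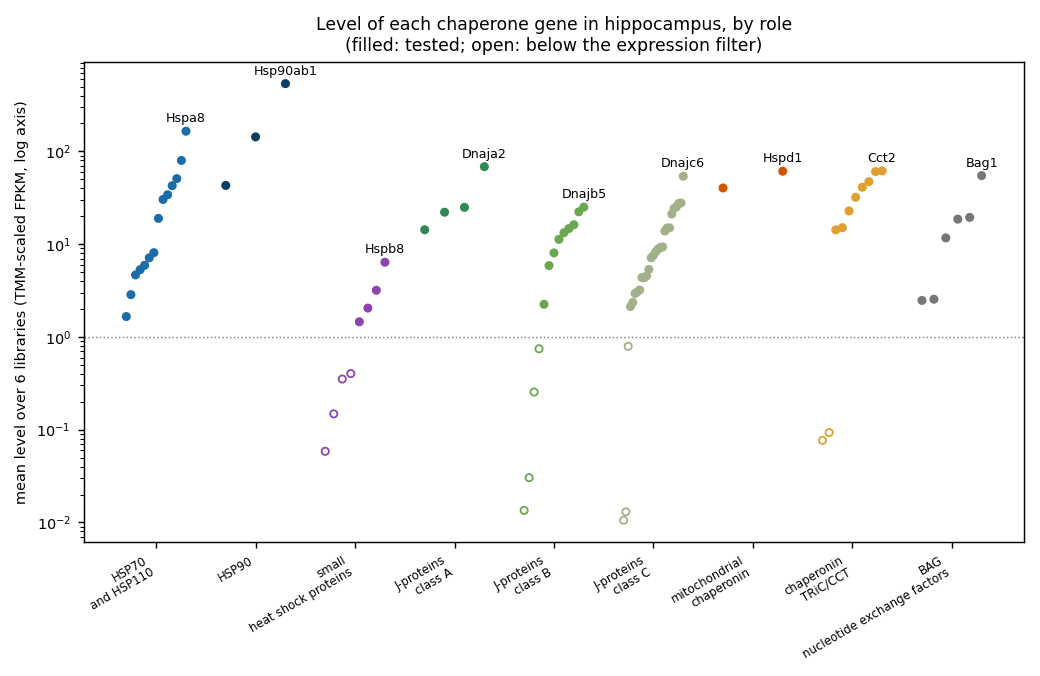
Mean level over the 6 libraries (TMM-scaled FPKM, log axis) of each chaperone gene, by role. Filled points are the 74 tested genes and open points the 13 below the expression filter; Hsp90ab1 stands highest at 538 FPKM and 3 genes exceed 100.

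Of the HSP70 and HSP110 family all 14 members were tested, and 11 of 14 had a negative log2 change, with a median of -0.05. Hspa8 (HSC70, the constitutive cytosolic HSP70) was at 174, 142 and 171 FPKM in baicalin libraries 1, 2 and 3 and at 176, 156 and 170.2 in saline libraries 1, 2 and 3. Its groups overlapped, and baicalin library 2 was the lowest (log2 change -0.04 ± 0.09, SE). Of the 100-base stretches of its longest transcript, 32.1% also occur in other annotated transcripts, so its count may hold reads of other genes.

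The stress-inducible genes Hspa1a and Hspa1b, whose transcripts are classical markers of a heat shock response, were low. Hspa1b was at 4.94, 5.56 and 5.11 FPKM with baicalin and at 5.96, 5.29 and 4.93 with saline (log2 change -0.05 ± 0.10). Hspa1a was at 4.29, 4.97 and 4.53 FPKM with baicalin and at 5.16, 4.34 and 4.66 with saline (-0.04 ± 0.10). Neither gene separated the groups. The genes lie 9951 bp apart on chromosome 17, and 47.1% of the 100-base stretches of Hspa1a occur in Hspa1b, so reads may be split between them. Their neighbour Hspa1l had a log2 change of 0.29 ± 0.14 (3.33, 3.02 and 3.06 against 3.07, 2.20 and 2.46 FPKM), and was named after its values were seen. It was 0.43 without saline library 1 and 0.18 without saline library 2. Hspa1l shares 70.8% of its stretches with the antisense gene Gm10501, which was at -0.72, and no source used here says whether reads were counted by strand.

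Hspa5 (BiP, the HSP70 of the endoplasmic reticulum; ENSMUSG00000026864, mm10 chromosome 2, 34771970 to 34777547) had the widest spread within groups of the 74 tested chaperone genes. It was at 21.3, 20.2 and 37.8 FPKM in baicalin libraries 1, 2 and 3 and at 40.9, 22.4 and 39.2 FPKM in saline libraries 1, 2 and 3. The libraries thus fell near either of 2 levels, the lower in baicalin 1 and 2 and saline 2, the higher in baicalin 3 and saline 1 and 3. The highest value was 2.02 times the lowest, in a gene with counts between 6396 and 13094 per library and no 100-base stretch shared with another transcript. The log2 change was -0.37 ± 0.31 (edgeR adjusted p = 0.654), and it ran from -0.72 without baicalin library 3 to -0.21 without baicalin library 2. The SD within groups was 0.49 on the log2 scale, and of 2319 genes within 2-fold of its level 48 (2.07%) had a larger one.

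The other carriers of the endoplasmic reticulum element did not split the libraries in this way. Hsp90b1 (GRP94) was at 44.3, 40.2 and 44.1 FPKM with baicalin and at 43.1, 41.6 and 44.5 with saline (log2 change -0.008 ± 0.05). Dnajc3 (P58IPK, a J-protein partner of BiP) was at 9.06, 9.24 and 8.60 FPKM with baicalin and at 9.40, 9.69 and 9.95 with saline, with groups that did not overlap (-0.11 ± 0.06, edgeR adjusted p = 0.475). Dnajb9, a J-protein cofactor of BiP and target of the unfolded protein response, was at 16.4, 14.4 and 16.4 FPKM against 16.3, 17.3 and 16.4. Dnajb11, another BiP cofactor, had a log2 change of -0.10 (-0.02 without baicalin library 2), and Hspa13, an HSP70 of the microsomes, one of -0.13 (-0.05 without saline library 2).

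Other genes of that compartment were read from a list of 18 folding and stress-sensor genes. None passed the adjusted threshold in edgeR, 1 (Xbp1, lower) passed an unadjusted p of 0.05 (all genes 11.8%), and the median log2 change was -0.05. Xbp1, the transcription factor of the response, was at 15.3, 15.1 and 16.5 FPKM with baicalin and at 17.3, 17.1 and 17.4 with saline (-0.14 ± 0.05, edgeR adjusted p = 0.404). Ddit3 (CHOP), induced late in the same response, lay the other way, at 12.2, 11.8 and 12.7 FPKM against 10.4, 10.8 and 11.5 (0.16 ± 0.07). The calcium-binding chaperone calreticulin (Calr) ranged from 89.8 to 104 FPKM over the 6 libraries. Hyou1, the HSP110 of the compartment, was at 11.7 FPKM in baicalin library 1, where Hspa5 was low, and at 6.99 to 7.79 in the other 5.

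Hspa2, a testis-rich HSP70 also made in brain, was the member of the family whose groups did not overlap. It was at 20.6, 18.7 and 21.4 FPKM with baicalin and at 18.1, 17.5 and 17.5 with saline (log2 change 0.19 ± 0.07, unadjusted p = 0.0236, edgeR adjusted p = 0.381). The value was 0.11 under the scaling to equal TPM. Hspa9, the mitochondrial HSP70 (mortalin), ranged from 77.6 to 81.9 FPKM. Hspa4 and Hsph1 are HSP110 exchange factors. Hspa4 ranged from 41.0 to 43.8 FPKM, and Hsph1 was at 36.4, 29.8 and 31.0 with baicalin and at 36.6, 38.3 and 32.4 with saline (-0.14 ± 0.09), from -0.24 without baicalin library 1 to -0.09 without saline library 2. Hspa12a, a distant relative enriched in brain, was at 50.3, 50.9 and 48.0 FPKM against 52.5, 53.2 and 50.1 (-0.06 ± 0.04). The other 4 members, Hspa4l, Hspa12b, Hspa13 and Hspa14, had log2 changes from -0.19 to -0.007.

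**Figure D3:**
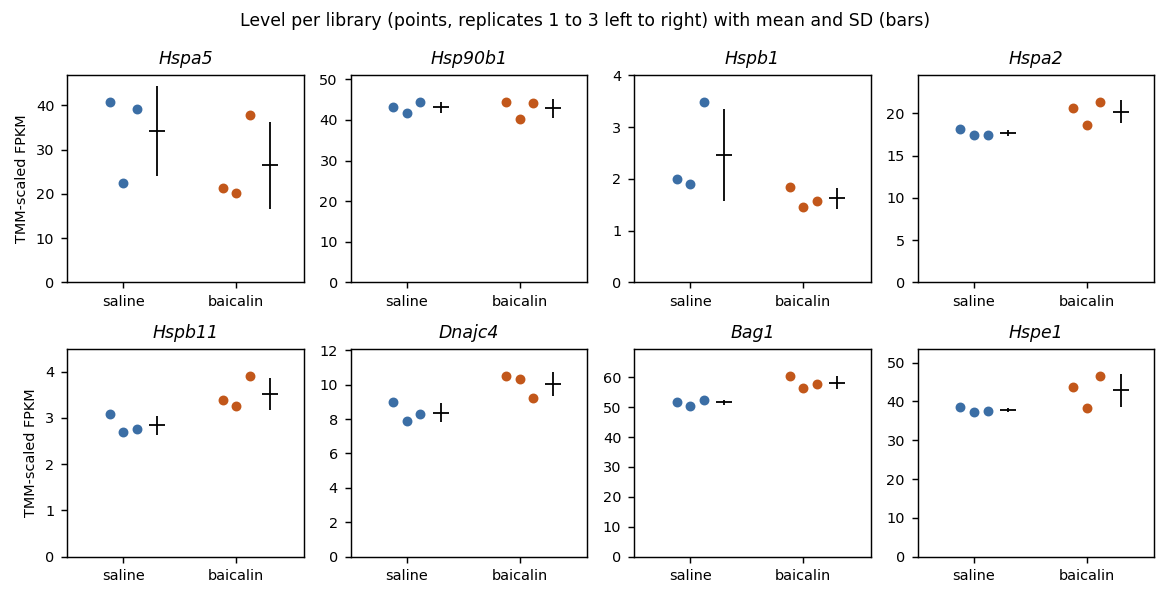
Level in each library (TMM-scaled FPKM, vertical axis from 0) of selected chaperone genes, in the saline and the baicalin group, with points in replicate order and the mean and SD as bars. Hspa5 divides both groups between about 20 and 40 FPKM, while Bag1 and Hspa2 are higher in each baicalin library than in each saline library.

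The HSP90 genes include the most abundant chaperone transcript. Hsp90ab1, the constitutive cytosolic form, made up 23.8% of the summed level of all members. It was at 575, 522 and 546 FPKM with baicalin and at 530, 527 and 526 with saline, and the saline libraries lay within the range of the baicalin ones (log2 change 0.05 ± 0.05, and -0.02 under the scaling to equal TPM). Hsp90aa1, the inducible form, was at 149, 133 and 144 FPKM with baicalin and at 135, 154 and 146 with saline (-0.03 ± 0.07). Of its stretches 47.5% are shared, most of them with Gm12346. Hsp90ab1 shared none.

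The small heat shock proteins with an Hspb symbol, ATP-independent holdases, were the least expressed group, and 4 of these 8 genes passed the filter. Cryab, a small heat shock protein that the symbol rule leaves out, had a mean of 19.7 FPKM (log2 change -0.23). Hspb1 (HSP27, Hsp25 in mice; mm10 chromosome 5, 135887919 to 135889563) had the most negative log2 change of all chaperone genes. It was at 1.85, 1.45 and 1.57 FPKM with baicalin and at 2.00, 1.91 and 3.49 with saline, so the groups did not overlap and saline library 3 stood far above the rest. The log2 change of -0.60 ± 0.27 (edgeR adjusted p = 0.440) became -0.27 without saline library 3. That library also had the highest summed level of meningeal markers, 16.8 FPKM against 7.88 to 9.76 in the other 5, with none of the 6 markers at 0; their part in the value was not tested. Hspb1 shares 42.7% of its stretches with the pseudogene Hsp25-ps1.

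Hspb11 (also Ift25, a subunit of the intraflagellar transport machinery of cilia) was at 3.40, 3.26 and 3.91 FPKM with baicalin and at 3.08, 2.69 and 2.77 with saline. Its groups did not overlap, and its log2 change of 0.31 ± 0.11 was the highest of the 74 (unadjusted p = 0.0310, edgeR adjusted p = 0.395). Hspb8, which works with Bag3 in chaperone-assisted autophagy, was at 6.55, 7.12 and 6.95 FPKM against 4.84, 5.63 and 7.24 (0.22 ± 0.15). The groups overlapped through saline library 3, the highest of the 6, and the change was 0.39 without it and 0.09 without saline library 1. Hspb6 was at 1.13, 2.08 and 1.50 FPKM against 1.46, 1.24 and 1.32 (0.23 ± 0.23). The Hspb6 value was -0.03 without baicalin library 2 and 0.42 without baicalin library 1. Summed markers of the choroid plexus and the ependyma were also highest in baicalin library 2, at 64.7 and 23.3 FPKM, and their part was not tested.

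Among the 4 class A J-proteins, the nearest relatives of bacterial DnaJ, Dnaja2 was the most abundant, at 67.6 to 70.4 FPKM with baicalin and at 66.5 to 68.6 with saline. Dnaja1, a farnesylated cytosolic member, was at 25.8, 24.0 and 25.5 FPKM against 24.3, 25.1 and 24.9. The mitochondrial member Dnaja3 was at 11.4 FPKM in baicalin library 2 and at 14.6 to 15.3 in the other 5. Dnaja4 was at 21.0, 20.3 and 21.6 FPKM with baicalin and at 23.9, 24.5 and 21.4 with saline, and saline library 3 overlapped the baicalin group (log2 change -0.15 ± 0.06, unadjusted p = 0.0491, edgeR adjusted p = 0.422). Of the stretches of its longest GENCODE M21 transcript 51.0% are shared with Wdr61, a gene on the opposite strand. In the deposited gene records Dnaja4 and Wdr61 share only 27 bp.

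Class B holds the heat-inducible Dnajb1 (HSP40) and the aggregation suppressor Dnajb6. Of 13 genes 9 were tested, 3 with a positive and 6 with a negative log2 change. Dnajb1 was at 14.8, 15.4 and 13.4 FPKM with baicalin and at 16.2, 15.0 and 13.5 with saline (-0.04 ± 0.09). Dnajb6 was at 23.7, 21.9 and 23.0 FPKM against 21.6, 22.5 and 21.4 (0.07 ± 0.05). Dnajb5 ranged from 22.0 to 27.9 FPKM. The groups overlapped in each of the 9. Dnajb12, a J-protein in the membrane of the endoplasmic reticulum, was named after its values were seen. It was at 12.8, 11.6 and 12.9 FPKM with baicalin and at 10.2, 11.8 and 8.34 with saline (0.30 ± 0.13, unadjusted p = 0.0544, edgeR adjusted p = 0.433), and at 0.18 without saline library 3.

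Class C J-proteins have the J domain joined to unrelated parts, and 24 of 27 were tested. Dnajc6 (auxilin) was the most abundant, at 52.3, 53.5 and 52.4 FPKM with baicalin and at 55.3, 55.8 and 54.2 with saline. Its groups did not overlap, at a log2 change of -0.06 ± 0.03 (edgeR adjusted p = 0.507). Dnajc5 (cysteine string protein) ranged from 24.6 to 25.7 FPKM over all 6 libraries. Dnajc13 (RME-8), which works in endosomal sorting, was at 4.42, 4.54 and 3.86 FPKM against 4.78, 4.61 and 5.05 (-0.17 ± 0.08, edgeR adjusted p = 0.442), and at -0.11 without baicalin library 3. Dnajc6, Dnajc13 and Dnajc3 were thus the 3 of 24 tested members of the class whose baicalin libraries all lay lower, as in 9.52% of all genes tested.

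Dnajc4 and Dnajc7 were the 2 of 24 tested members of the class whose baicalin libraries all lay higher, as in 9.93% of all genes tested. Dnajc4, a small membrane J-protein, was at 10.5, 10.3 and 9.23 FPKM with baicalin and at 8.97, 7.86 and 8.30 with saline (0.26 ± 0.09, unadjusted p = 0.0298, edgeR adjusted p = 0.395). Dnajc7 (TPR2), which binds both HSP70 and HSP90, was at 28.1, 27.8 and 27.9 FPKM against 27.2, 26.1 and 27.5 (0.05 ± 0.04, and -0.03 under the scaling to equal TPM). Its record overlaps that of the myelin gene Cnp on the other strand by 8912 bp. Dnajc8, a factor linked to splicing, ranged from 26.3 to 29.4 FPKM. Dnajc14, named after its values were seen, was at 5.78, 7.36 and 6.67 FPKM against 7.18, 10.5 and 7.87 (-0.37 ± 0.16, unadjusted p = 0.0564, edgeR adjusted p = 0.437), and at -0.19 without saline library 2. Of the stretches of Dnajc14 24.6% are shared with Ormdl2, a gene on the opposite strand. Its record also overlaps that of Sarnp (mean 16.9 FPKM) by 2114 bp on the same strand. The class as a whole had a median log2 change of -0.02, with 10 positive and 14 negative values.

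**Figure D4:**
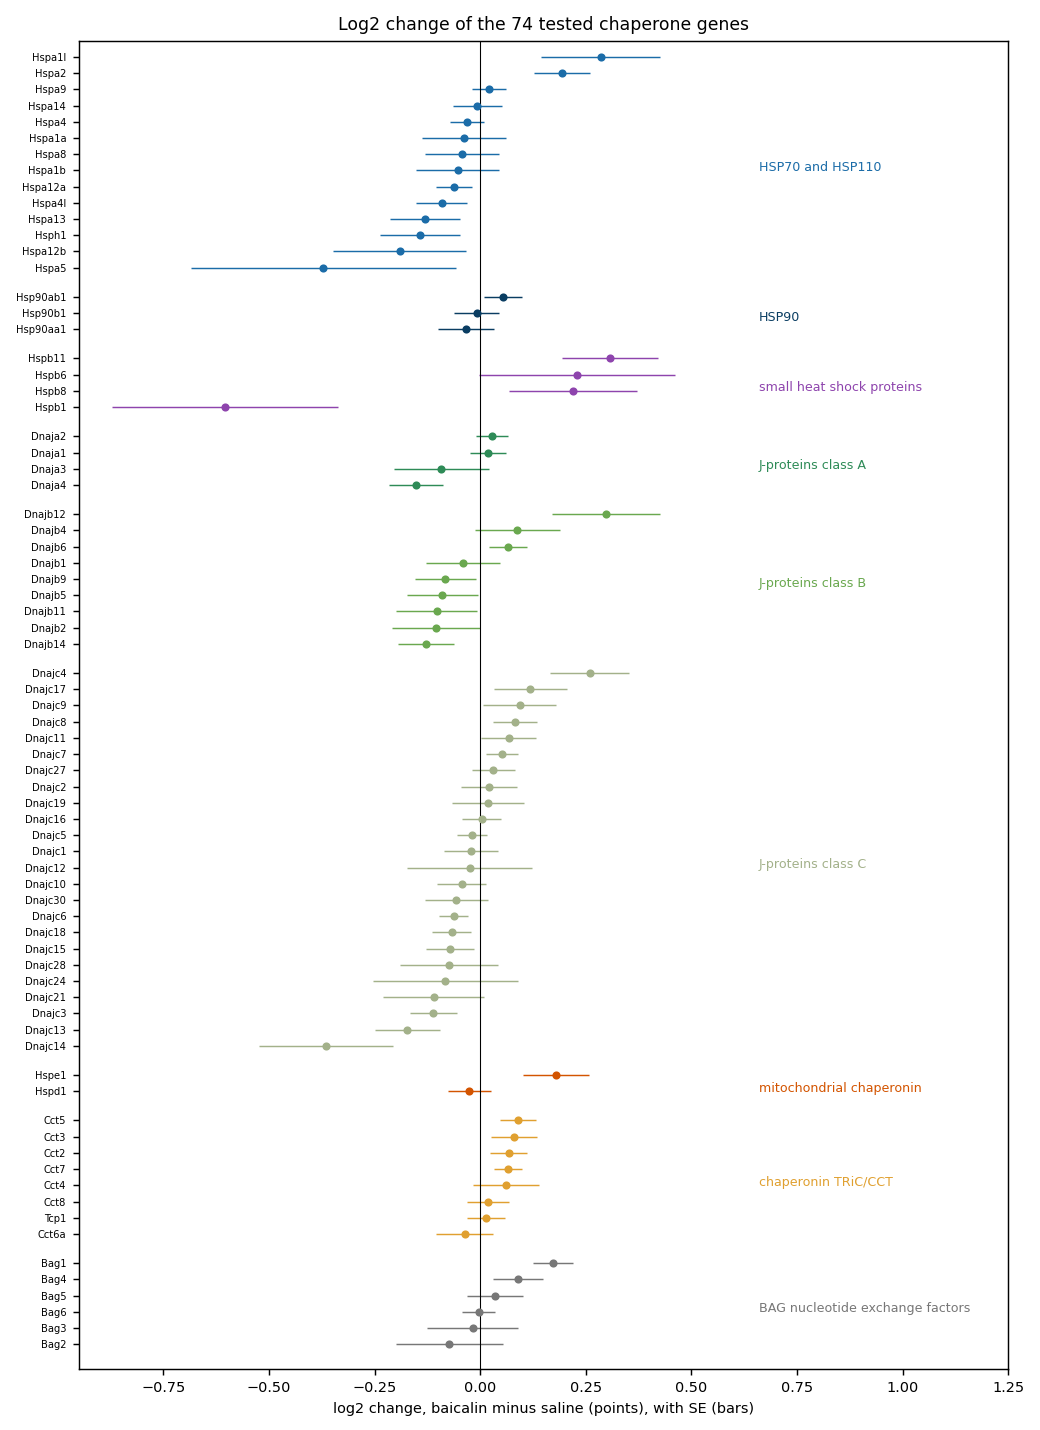
Log2 change, baicalin minus saline (points, horizontal axis), with SE (bars) for the 74 tested chaperone genes, by role. Most lie within 0.2 of 0; Hspb1 at -0.60 and Hspb11 at 0.31 are the extremes, and no member passed the adjusted threshold.

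The chaperonin TRiC/CCT is a double ring of 8 different subunits that folds actin and tubulin, and each ring holds 1 copy of each. All 8 ring genes (Tcp1, Cct2, Cct3, Cct4, Cct5, Cct6a, Cct7 and Cct8) were tested. Of these, 7 had a positive log2 change, with a median of 0.06, and Cct6a was at -0.04. Under the scaling to equal TPM the median was -0.01, and Cct2, Cct4, Cct7, Cct8 and Tcp1 were negative as well. Cct5 was at 64.4, 59.8 and 63.3 FPKM with baicalin and at 57.8, 58.8 and 59.6 with saline (0.09 ± 0.04, edgeR adjusted p = 0.454; 0.01 under the scaling to equal TPM). Cct7 was at 23.3 FPKM in each baicalin library and at 22.5, 22.1 and 22.2 with saline (0.06 ± 0.03, edgeR adjusted p = 0.484). In these 2 genes the groups did not overlap in the main scaling, and did under the scaling to equal TPM.

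Transcript levels of the ring subunits were unequal in the same way in every library. The highest subunit was 4.10 to 4.56 times the lowest; Cct2 or Cct5 was highest and Cct3 or Cct4 lowest. Cct2 was at 59.0 to 65.1 FPKM and Cct3 at 13.3 to 15.3. Cct8 was at 45.9 to 48.7 FPKM in the saline libraries, and over all libraries Cct6a was at 37.4 to 44.0, Tcp1 at 30.8 to 33.8 and Cct4 at 14.1 to 17.0. For the ring genes the deposited FPKM were close to proportional to counts per length of all annotated exons of a gene. That length is 2557 bp for Cct2 and 6370 bp for Cct3, while their longest transcripts have 1959 and 3335 bases. The ratio between subunits thus depends on the gene models used. Not every member followed the exon length: the FPKM of Hspa12a and Hspa9 implied lengths of 6541 and 3462 bp, against 9192 and 4310 bp of exons.

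**Figure D5:**
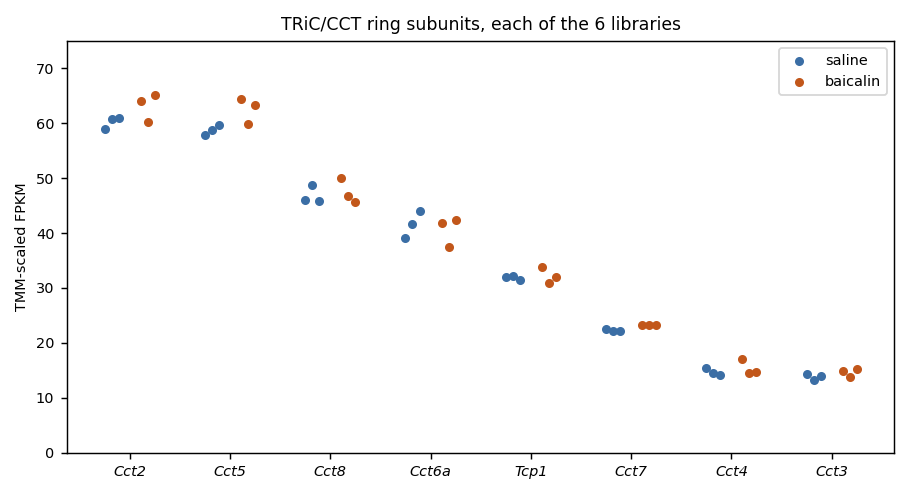
Level (TMM-scaled FPKM, vertical axis from 0) of the 8 TRiC/CCT ring subunits in each of the 6 libraries. The order from Cct2 and Cct5 near 60 FPKM to Cct3 and Cct4 near 15 FPKM recurs in both groups.

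Prefoldin hands nascent actin and tubulin to this ring. Of a list of 9 prefoldin subunits and ring cofactors none passed the adjusted threshold in edgeR, and 3 had an unadjusted p of 0.05 or less, all higher (all genes 6.34% higher), with a list median of 0.12. Pfdn5 was at 100.2, 104 and 106 FPKM with baicalin and at 88.3, 89.5 and 85.5 with saline (0.24 ± 0.04, unadjusted p = 0.000917, edgeR adjusted p = 0.223). Pfdn2 was at 50.2, 48.8 and 55.3 FPKM against 45.1, 44.1 and 40.6 (0.25 ± 0.07, edgeR adjusted p = 0.325). The prefoldin subunit Vbp1 lay the other way, at 20.5, 19.0 and 21.3 FPKM against 22.0, 22.1 and 21.8 (-0.12, and -0.07 without baicalin library 2). The genes of this list were short, with a median length implied by the FPKM of 2434 bp against 4602 bp in all genes tested. The scaling to equal TPM moved the log2 change of all genes by a median of -0.08. The part of length in the prefoldin values was not tested.

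Hspd1 (HSP60) and its lid Hspe1 (HSP10) form the chaperonin of mitochondria. Hspd1 was at 63.5, 58.1 and 60.0 FPKM with baicalin and at 58.9, 63.7 and 62.3 with saline (log2 change -0.03 ± 0.05). Hspe1 was at 43.7, 38.2 and 46.6 FPKM with baicalin and at 38.5, 37.4 and 37.6 with saline (0.18 ± 0.08, unadjusted p = 0.0587, edgeR adjusted p = 0.438). The RefSeq starts of both genes bound the region printed above, which lies inside the deposited gene record of Hspd1. The values of Hspd1 and Hspe1 were of opposite sign, and the difference between them was not tested. The Hspe1 groups overlapped only through baicalin library 2, and the value was 0.11 without baicalin library 3 and 0.10 under the scaling to equal TPM. The gene records overlap by 112 bp on opposite strands, and 26.9% of the stretches of Hspd1 occur elsewhere, mostly in the pseudogene Hspd1-ps3. In a list of 11 other mitochondrial folding genes none had an unadjusted p under 0.05 in edgeR (all genes 11.8%), and the median was 0.01. Clpp and Hscb had the smallest p of that list. Clpp was higher in every baicalin library than in every saline library, as in 9.93% of all genes tested (0.14 ± 0.06, edgeR adjusted p = 0.450). The Hscb groups overlapped (0.35 ± 0.18).

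Most BAG proteins bind the ATPase domain of HSP70 and release its nucleotide, and all 6 BAG genes were tested. Bag1, which links HSP70 to the proteasome and also binds steroid receptors and Bcl2, had the smallest p of all chaperone genes. Bag1 (ENSMUSG00000028416, mm10 chromosome 4, 40936398 to 40948294) was at 60.4, 56.2 and 57.7 FPKM in baicalin libraries 1, 2 and 3 and at 51.9, 50.5 and 52.4 in saline libraries 1, 2 and 3. The baicalin libraries were all higher, at a log2 change of 0.17 ± 0.05 (unadjusted p = 0.00950, edgeR adjusted p = 0.335). The value was 0.09 under the scaling to equal TPM and 0.08 after removal of a trend on gene length. Bag3, the stress-inducible member that steers clients to autophagy, was at 2.26, 2.55 and 2.57 FPKM against 2.69, 2.29 and 2.49 (-0.02 ± 0.11). Bag6 ranged from 18.3 to 19.0 FPKM, Bag5 had a log2 change of 0.03, Bag4 of 0.09 and Bag2 of -0.07.

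Genes outside the rule that regulate or assist these chaperones gave the following counts. Of 8 heat shock factors and regulators 4 were tested; Hsbp1, which binds heat shock factors, was at 85.2, 84.1 and 99.6 FPKM against 80.0, 81.6 and 75.1 (log2 change 0.18 ± 0.08, edgeR adjusted p = 0.417), and its change was 0.10 without baicalin library 3 and under the scaling to equal TPM. Hsf1, the main heat shock factor, was at 2.78, 3.17 and 2.18 FPKM against 2.36, 2.30 and 2.31 (0.22 ± 0.14), from 0.10 without baicalin library 2 to 0.36 without baicalin library 3. Of 23 co-chaperones 1 had a higher and 2 a lower value at an unadjusted p of 0.05 in edgeR (all genes 6.34% higher and 5.46% lower), with a median of 0.005. Sgtb, a neuronal HSP70 co-chaperone, was at 28.2, 27.0 and 27.8 FPKM against 30.3, 31.8 and 30.8 (-0.16 ± 0.04, edgeR adjusted p = 0.324). Chordc1 (morgana), an HSP90 partner, had a log2 change of -0.21 ± 0.08. Fkbp5, an HSP90 co-chaperone of the glucocorticoid receptor induced by glucocorticoids, was at 11.4, 9.80 and 10.2 FPKM against 4.77, 7.48 and 9.28 (0.55 ± 0.22, edgeR adjusted p = 0.418). The Fkbp5 value was 0.32 without saline library 1, the lowest of the 6.

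The remaining 13 chaperone genes were below the filter and were not tested. They are Hspb2, Hspb3, Hspb7, Hspb9, Cct6b, Cct8l1, Dnajb3, Dnajb7, Dnajb8, Dnajb13, Dnajc5b, Dnajc22 and Dnajc25. Hspb2, Hspb3 and Hspb7 are known from muscle, and Cct6b and Dnajb3 from testis. Hspb3 was at 0.12, 0.32 and 0.81 FPKM with baicalin and at 0.38, 0.41 and 0.37 with saline, with counts of 7 to 45 per library. Hspb7 was listed at 0 in baicalin library 1 and saline library 2, and reached 0.19 FPKM, or 37 counts, in baicalin library 3. Dnajb7, Dnajb8, Dnajc5b, Dnajc22 and Hspb9 were also at 0 in at least 1 library, with no count above 17. Cct6b, the testis form of Cct6a, had 4 to 18 counts.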

How the data were processed

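Hippocampal total RNA was sequenced in 6 libraries, 3 per group. The deposited table holds a whole-number count, and an FPKM value, for each gene and library; per the file headers the counts are not normalized. The authors' FPKM are scaled to gene length and library. They worked on build mm10 with bcl2fastq 2.0, HISAT2, StringTie, limma and DESeq2, per the submitters' processing notes. No source used here gives how reads were assigned or whether strand was used. Another 12 columns of values matched no sample and were left out.

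From the counts, genes whose mean reached 1 FPKM were fitted with TMM scaling in edgeR 4.0.16 (R 4.3.3, quasi-likelihood test), with a Benjamini-Hochberg threshold of 0.05. Because the labels do not say that each library came from its own animal, p-values measure the spread between libraries, which may be technical. Fitted log2 changes are given ± SE, where SE is the size of the change divided by the square root of F. The fit was tested on simulated data. Libraries held 61303274 to 67957752 counts. Counting (Poisson) error exceeded 0.5 of the SD within groups in 12 of the 74 tested members, and exceeded that SD in 1 (Cct7).

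Shared sequence was measured as the share of 100-base stretches of a gene's longest GENCODE M21 transcript that occur in transcripts of other genes. Promoters were the 250 bases before each RefSeq start. Genes named in the text were, per role, the 4 most abundant, up to 4 per direction whose groups did not overlap, a set of well-known members, and those whose highest library exceeded 3 times the lowest; from the other lists, the 2 of smallest p. Other names were added after their values were seen. The members and lists were chosen with earlier results of these data known. Alternatives were RLE and TPM scaling, other filters, DESeq2 1.42.0, limma 3.58.1 on log2(FPKM + 1) and log2(FPKM + 0.1), a replicate block, removal of a length trend, and leaving out each library.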

Additional observations from a re-analysis of the deposited data

How the results depend on the processing

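No chaperone gene was called under any of the alternatives that held a test. Removal of the length trend, which is counted among the 15, altered the log2 changes only and was not tested. The number of genes called over the whole table, 6, was 211 with DESeq2, 0 with the replicate block, and 2 to 39 when 1 library was left out, with 39 in the absence of baicalin library 1, 2 in that of baicalin library 3, 10 in that of saline library 2 and 14 in that of saline library 3. The members' median log2 change, -0.02, was -0.10 under the scaling to equal TPM, -0.02 with the replicate block and -0.0198 to 0.00395 with 1 library left out. The cause of these moves was not tested. Deviations of same-numbered libraries from their group means had correlations of 0.091, 0.052 and -0.024. Libraries of different number had correlations of -0.098 to 0.055. With 3 libraries per group these values cannot decide whether the numbers pair the libraries.

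The following counts cover 47 tested members, picked by the naming rule or, for Hspa1l, Dnajb12 and Dnajc14, after their values were seen. Of their 698 values under the alternatives, 33, of 23 members, had the other sign. None passed the threshold, where removal of the length trend carried the p-values of the main fit. Other members given above are left out of these counts. Among those, Cct4 was at -0.016 under the scaling to equal TPM and Bag2 at 0.040 without saline library 3. In the 47 members, the log2 changes of other sign under the scaling to equal TPM were Bag5 -0.045, Cct2 -0.011, Cct8 -0.058, Tcp1 -0.064, Cct7 -0.013, Hspa9 -0.058, Hsp90ab1 -0.024, Dnaja2 -0.050, Dnaja1 -0.060, Dnajb6 -0.012 and Dnajc7 -0.025. The range with 1 library left out crossed 0 for Bag3 -0.075 to 0.042, Bag6 -0.020 to 0.0075, Cct6a -0.079 to 0.018, Cct8 -0.024 to 0.047, Dnaja1 -0.0068 to 0.051, Dnaja3 -0.17 to 0.031, Dnajb1 -0.11 to 0.024, Hsp90aa1 -0.085 to 0.012, Hsp90b1 -0.037 to 0.036, Hspa1a -0.098 to 0.031, Hspa1b -0.11 to 0.025, Hspa8 -0.10 to 0.044, Hspb6 -0.028 to 0.42, Hspd1 -0.065 to 0.0031 and Tcp1 -0.026 to 0.044.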

Other observations

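RNA-binding proteins induced by mild cold, which belong to no chaperone family, gave values in the same libraries. Rbm3 was at 28.0, 32.0 and 27.6 FPKM with baicalin and at 24.4, 26.4 and 24.9 with saline (log2 change 0.21 ± 0.07, edgeR adjusted p = 0.362). Cirbp was at 24.4, 31.4 and 23.0 FPKM against 18.2, 18.7 and 22.1 (0.42 ± 0.14, edgeR adjusted p = 0.366). Baicalin library 2 was the highest in both, and without it the changes were 0.14 for Rbm3 and 0.27 for Cirbp. In both genes every baicalin library was above every saline library, as in 9.93% of all genes tested, and neither passed the adjusted threshold; under the scaling to equal TPM the groups of both genes overlapped.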
